A study of Mus musculus with 2 samples.

Results

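The genes described here encode the nuclear-encoded subunits of the mitochondrial respiratory chain and of ATP synthase. They were taken by symbol from the feature tables: the Nduf genes with a letter a, b, c, s or v and a digit, Sdha to Sdhd, every Uqcr gene, the Cox genes from Cox4 to Cox8 and every Atp5 gene, leaving out names that mark a pseudogene. This gave 85 of 54754 features: 36 for complex I, 4 for complex II, 8 for complex III, 18 for complex IV and 17 for ATP synthase. The other two, Cox7a2l, which helps to join complexes III and IV, and Atp5s, a factor that couples ATP synthase, match by name and were counted apart. Ndufa4 stands with complex I by its name, although its protein is now placed in complex IV. The symbol rule itself uses no measured value.

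The respiratory chain passes electrons from NADH (complex I) and succinate (complex II) through coenzyme Q, complex III and cytochrome c to oxygen at complex IV, and pumps protons that ATP synthase uses to make ATP. In brown fat, uncoupling protein Ucp1 lets the protons return without ATP being made, so that respiration yields heat. Brown adipocytes are known for dense mitochondria and a low content of ATP synthase relative to the chain, which has been traced to low expression of Atp5g1, one of several genes for the same c subunit of the membrane ring. Several complex IV subunits also exist as isoforms from separate genes, with muscle-type forms such as Cox7a1 and Cox8b that brown fat shares with heart.

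Nuclei came from the ascending aorta and aortic arch of mice carrying Wnt1-Cre and Rosa26-mTmG. Wnt1 drives the recombinase in embryonic neural crest, and the reporter allele switches from tdTomato to GFP once a cell or its ancestor has expressed Cre. All animals carried both alleles, their age is not given, and no treatment is named. Animals of each sex were pooled, giving 1 Female and 1 Male library. The labels name 6 mice and 2 technical replicates of each pool, without saying whether the 6 are per sex, and the barcodes do not show the technical split. The only replicates of a cell type are therefore these 2 pools, which also differ in sex. The p-values measure how differences between groups of nuclei vary between the pools, after a shift common to a whole pool is removed. In the class comparisons all 6 classes share this estimate. It does not measure the spread between animals.

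Depth was close in both libraries, at 79294181 (Female) and 77989549 (Male) unique molecular identifiers (UMIs) over 18872 and 20659 barcodes. Barcodes with at least 300 genes were assigned to a class by the largest UMI sum, of at least 3, among sets of 3 marker genes: Ucp1, Cidea and Ppara for brown adipocyte, Cyp2e1, Retn and Trhde for white adipocyte, Myh11, Acta2 and Lmod1 for smooth muscle, Ptprb, Flt1 and Pecam1 for endothelial, Pdgfra, Dcn and Scara5 for fibroblast, and Mrc1, F13a1 and Cd163 for macrophage nuclei. This placed 17451 Female and 18919 Male nuclei, from 422 white adipocyte nuclei in the Female library to 8089 smooth muscle nuclei, with median depths of 2391 to 7376 UMIs. Of markers the rule did not use, 10 of 11 for brown adipocyte, 7 of 8 for white adipocyte, 7 of 7 for smooth muscle, 6 of 7 each for endothelial and fibroblast and 7 of 7 for macrophage were highest in their own class. The 2 adipocyte classes overlap. The 8 white adipocyte markers of that check are general fat cell markers, so they do little to tell white from brown nuclei. They summed to 8597 and 8978 CPM (UMIs of the genes per 1000000 UMIs of the class) in brown nuclei. In white nuclei the sums were 10409 and 9953 CPM (Female and Male, the order used throughout). Also, 254 of 422 and 339 of 570 white nuclei had at least 3 UMIs of the brown set. Counts of calls for the adipocyte classes are given also without nuclei that hold 3 UMIs of a second marker set. The libraries shared 4287 barcode sequences. Of the 3600 assigned in both, 30.4% had the same class, against 30.1% from the class sizes. The 7 heart muscle markers summed to 65.6 and 2.16 CPM in brown nuclei, of which 2 Female nuclei held 3 or more such UMIs.

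Promoters of 5 members whose behaviour is described below are shown first, as RefSeq gives them on GRCm38.p6, from 250 bases before to 50 after the start site, 5′ to 3′ along the gene. Cox8b and Cox7a1 had the largest differences, Atp5g3 and Atp5g1 encode the same mature protein and differed in opposite directions, and Sdhd holds the most motif matches among these. Capitals mark matches to AAGGTCA, the core of the site bound by estrogen-related receptors (ERR), CCGGAAG, the core for GABP and other ETS factors, and TGCGCA, the core for NRF1, on either strand.
Cox8b, chr7:140900397-140900696, minus strand: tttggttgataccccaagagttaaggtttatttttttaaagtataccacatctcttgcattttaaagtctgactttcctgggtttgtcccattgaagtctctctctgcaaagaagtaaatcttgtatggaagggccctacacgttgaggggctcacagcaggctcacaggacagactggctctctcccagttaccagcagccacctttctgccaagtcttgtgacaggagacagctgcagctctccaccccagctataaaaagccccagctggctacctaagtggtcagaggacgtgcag
Cox7a1, chr7:30183921-30184220, plus strand: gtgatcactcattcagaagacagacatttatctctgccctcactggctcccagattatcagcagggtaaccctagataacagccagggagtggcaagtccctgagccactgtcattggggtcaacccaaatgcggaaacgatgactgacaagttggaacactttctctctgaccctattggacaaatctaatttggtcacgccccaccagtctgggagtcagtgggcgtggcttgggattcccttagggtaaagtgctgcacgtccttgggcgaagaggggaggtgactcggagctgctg
Atp5g3, chr2:73911277-73911576, minus strand: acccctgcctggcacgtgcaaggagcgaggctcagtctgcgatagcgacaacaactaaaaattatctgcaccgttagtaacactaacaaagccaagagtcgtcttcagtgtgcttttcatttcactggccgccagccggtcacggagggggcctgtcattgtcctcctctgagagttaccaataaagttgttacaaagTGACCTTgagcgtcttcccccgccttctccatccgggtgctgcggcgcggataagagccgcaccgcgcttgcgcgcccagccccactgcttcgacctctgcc
Atp5g1, chr11:96075582-96075881, minus strand: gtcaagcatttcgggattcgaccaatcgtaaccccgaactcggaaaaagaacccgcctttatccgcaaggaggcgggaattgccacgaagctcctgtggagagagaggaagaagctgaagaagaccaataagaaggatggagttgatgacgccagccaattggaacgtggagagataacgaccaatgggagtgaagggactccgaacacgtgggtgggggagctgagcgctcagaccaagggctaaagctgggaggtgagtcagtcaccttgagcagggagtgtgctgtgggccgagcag
Sdhd, chr9:50603800-50604099, minus strand: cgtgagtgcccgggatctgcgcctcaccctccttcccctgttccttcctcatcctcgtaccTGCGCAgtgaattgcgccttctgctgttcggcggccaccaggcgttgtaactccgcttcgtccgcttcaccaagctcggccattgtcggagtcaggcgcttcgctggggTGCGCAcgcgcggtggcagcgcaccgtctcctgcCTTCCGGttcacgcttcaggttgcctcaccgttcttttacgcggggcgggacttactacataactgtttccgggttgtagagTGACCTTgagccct

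The Atp5g3 window holds 1 ERR core, first base at -52 from the start and on the opposite strand. The Sdhd window holds the NRF1 core at -189 and -80, the ETS core at -46 and the ERR core at 36. No match lies in the Cox8b, Cox7a1 or Atp5g1 windows. The windows of Cox5a and Uqcrfs1, which also differed strongly (below) and are not shown, hold none either. Of 85 members, 67 had a promoter in the table, and where several starts are listed the first was counted, for members and all genes alike. The ERR core was in 8 of them (11.9%), against 4.66% of 27025 promoters of the same length, 1 per gene, and the ETS core in 15 (22.4%, against 9.12%). The NRF1 core was in 18 (26.9%, against 8.06%) and ATGGCGG, the core for YY1, in 9 (13.4%, against 4.19%). These are letter matches, with no test and no claim of binding. In brown nuclei against the mean of the 4 non-adipocyte classes (below), the 8 members with an ERR core had log2 differences from 1.04 for Ndufs5 to 3.27 for Atp5g3. They were not compared with the members without one.

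Brown adipocyte nuclei held the most respiratory chain RNA of the 6 classes, white adipocyte nuclei came next, and the 4 other classes lay close together at a lower level. Summed over the 85 genes, the level was 8692 and 8422 CPM in brown nuclei and 4545 and 4065 CPM in white nuclei. It was 1935 and 1938 CPM in smooth muscle, 2297 and 2415 in endothelial, 1827 and 1919 in fibroblast and 2095 and 2057 in macrophage nuclei. The brown values do not overlap the white, nor the white the rest. The mean over both libraries was 1.99 times as high in brown as in white nuclei and 4.15 times as high as the mean of the 4 non-adipocyte classes. By complex, the ratio of brown to the mean of these 4 was 3.53 for complex I, 3.88 for complex II and 4.98 for complex III. It was 5.79 for complex IV and 4.15 for ATP synthase. The complex IV ratio includes Cox8b and Cox7a1, which had the largest differences (below), and was not worked out without them.

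**Figure D1:**
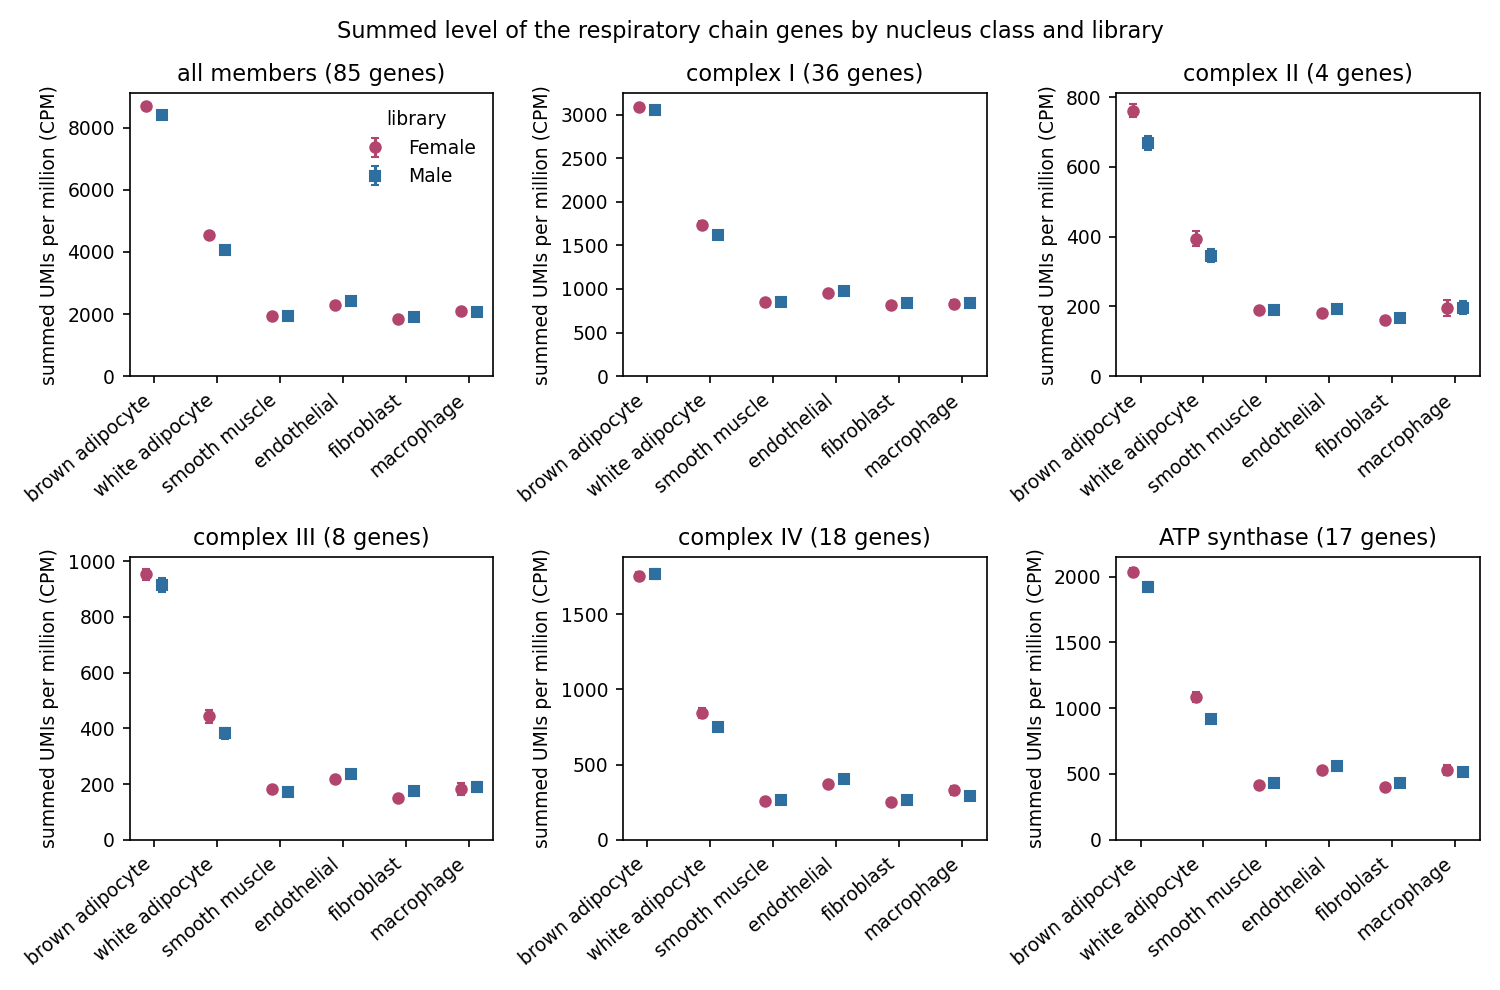
Summed CPM (y axis, from 0) of all 85 genes and of each complex in the 6 nucleus classes (x axis), with circles for the Female and squares for the Male library and bars for exact 95% Poisson intervals, which cover counting error only. In each panel both brown adipocyte points lie highest and both white adipocyte points next, as in all members at 8692 and 8422 against 4545 and 4065 CPM.

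The order was the same at equal depth. With every nucleus thinned to 1000 UMIs, brown nuclei held a median of 9 and 8 chain UMIs, white nuclei 4.5 and 4, and the other 4 classes 2 in both libraries. At least 1 chain UMI was found in 99.8% and 99.6% of thinned brown nuclei (exact 95% Clopper-Pearson intervals 99.4 to 99.98% and 98.9 to 99.9%) and in 98.6% and 97.0% of white nuclei. In the non-adipocyte classes the share ran from 81.4% in Female fibroblast to 88.4% in Male endothelial nuclei. Before thinning it was 100% in both adipocyte classes and 95.5 to 98.5% elsewhere, where nuclei also had fewer UMIs.

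Gene by gene, 81 members had at least 50 UMIs and were tested among 19501 features by the edgeR quasi-likelihood test on UMIs summed per class and library, with calls below 0.05 after Benjamini-Hochberg adjustment. The 4 below the filter were Cox8c with 0 UMIs, Cox6c2, annotated as a processed pseudogene, with 3, Cox6a2 with 9 and Cox7b2 with 17. Cox6a2 is the muscle-type partner of Cox6a1, and Cox8c and Cox7b2 are known from testis. In brown nuclei against the mean of the 4 non-adipocyte classes, 79 members were higher and 1 was lower, where 31.2% of all features were higher and 32.7% lower. Their median log2 difference was 1.95, against -0.08 over all features. Every member tested of complexes I (36), II (4) and III (8) was higher. So were 13 of 14 of complex IV and 16 of 17 of ATP synthase, the 16 including a second Atp5o model described below. Both brown sums lay above all other 10 sums for 76 of 81 members, against 11.4% of features. The exceptions were Cox4i2, Cox6b2, Atp5g1, Atp5g2 and that second Atp5o model. Without nuclei of a second marker set the counts were again 79 and 1, with no share of all features worked out there. The mean summed level was then 9586 CPM in brown and 4382 CPM in white nuclei.

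**Figure D2:**
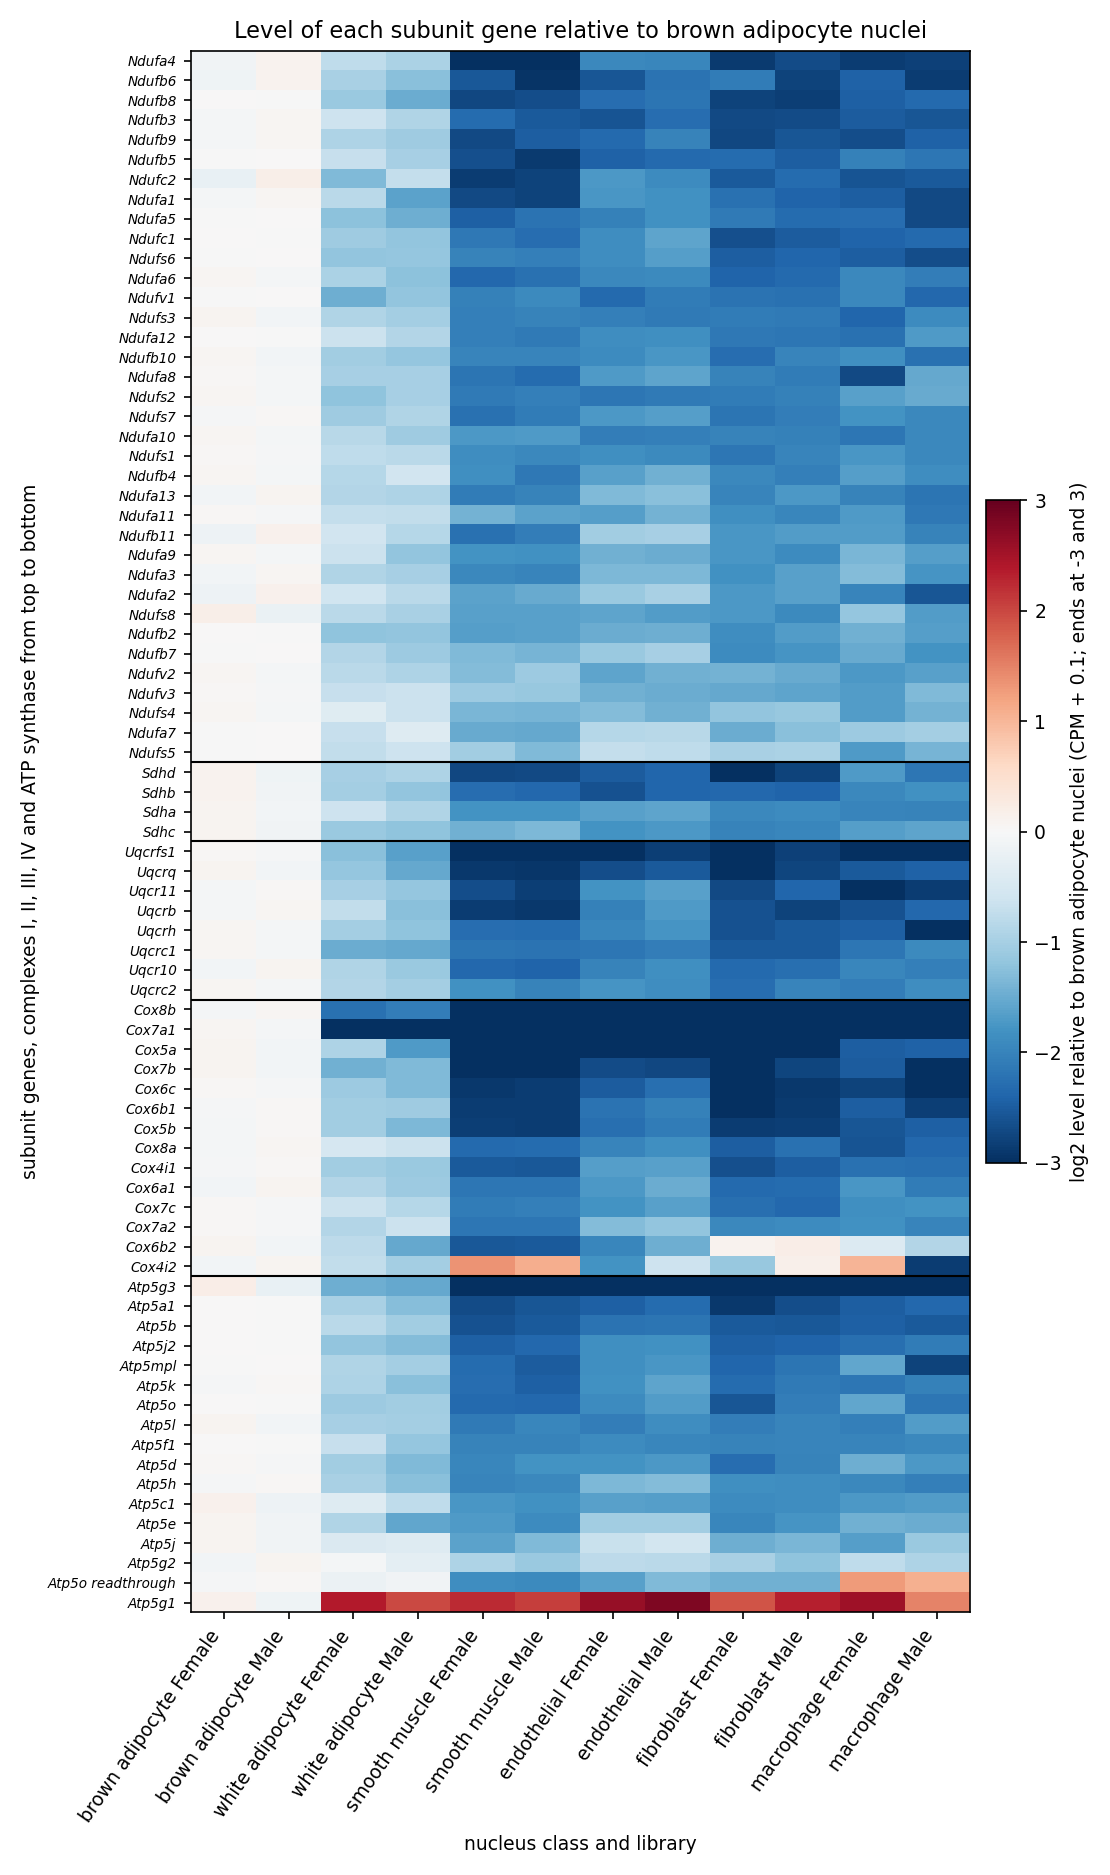
Level of each of 79 subunit genes (rows, by complex, sorted by their difference in brown nuclei) in each class and library (columns), as log2 of CPM relative to the mean of the 2 brown adipocyte sums, with blue for lower and red for higher. Nearly all rows are palest in brown, light blue in white adipocyte and darker blue in the other classes. Atp5g1 at the bottom is red in all classes but brown, and Cox4i2, Cox6b2 and the second Atp5o model break the pattern in smooth muscle, fibroblast and macrophage nuclei.

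Complex I, the NADH dehydrogenase and the largest complex, was higher in every gene, with a median log2 difference of 1.91. Ndufs4, an accessory subunit needed for assembly of the electron input module, was at 329 and 305 CPM in brown nuclei, 246 and 202 in white and 99.7 to 144 in the others, and rose by only 1.30 ± 0.10 (log2 ± SE). Ndufs1, the iron-sulfur subunit of that module, was at 234 and 224 CPM in brown, 135 and 131 in white and 51.2 to 68.5 elsewhere (log2 1.86 ± 0.08, adjusted p = 2.8e-09). For both genes the brown, white and other sums form separate steps. At the ends of the complex were Ndufa4 (2.59 ± 0.10) and the membrane arm subunit Ndufb6 (2.50 ± 0.18), against Ndufs5 (1.04 ± 0.10) and Ndufa7 (1.15 ± 0.09). Ndufs5 had its lowest values, 27.1 and 33.4 CPM, in macrophage nuclei, and in endothelial nuclei (53.5 and 51.9) it came close to white nuclei (53.1 and 57.0).

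Complex II, succinate dehydrogenase, links the chain to the citric acid cycle. Its summed level was 760 and 668 CPM in brown, 394 and 345 in white and 162 to 197 in the other sums. Sdha, the flavoprotein, was at 306 and 276 CPM in brown nuclei, 190 and 155 in white and 72.5 to 97.1 in the others, a log2 difference of 1.77 ± 0.09 (edgeR adjusted p = 9.5e-09). Sdhb, the iron-sulfur subunit, differed by 2.21 ± 0.09, and the membrane anchors Sdhd by 2.46 ± 0.13 and Sdhc by 1.63 ± 0.09. Sdhc is the one whose smooth muscle level (49.1 and 52.5 CPM) came near that of white nuclei (61.7 and 58.3).

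Complex III, the cytochrome bc1 complex, had the second highest ratio. Uqcrfs1, the Rieske iron-sulfur protein, was at 59.7 and 57.0 CPM in brown, 24.4 and 18.9 in white and 4.91 to 8.27 in the others, a log2 difference of 3.11 ± 0.15 (edgeR adjusted p = 5.5e-09). Uqcrq, a small membrane subunit, followed with 2.67 ± 0.12. The core proteins Uqcrc2 (1.90 ± 0.10) and Uqcrc1 (2.16 ± 0.08) and the small subunit Uqcr10 (2.09 ± 0.09) stood at the lower end. The hinge protein Uqcrh was at 138 and 128 CPM in brown nuclei and between 13.8 and 39.1 in the non-adipocyte sums.

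Complex IV, cytochrome c oxidase, held the largest differences. Cox8b, the muscle-type form of subunit 8, was at 154 and 169 CPM in brown nuclei, 34.3 and 38.3 in white and 2.99 to 4.21 in the other 8 sums. The brown, white and other values do not overlap, and the log2 difference of brown to the 4 classes was 5.43 ± 0.10, or 43.1-fold (edgeR adjusted p = 6.5e-12). Cox7a1, the muscle-type form of subunit 7a, was at 93.5 and 86.6 CPM in brown, 11.2 and 5.88 in white and 1.39 to 6.10 in the others. It differed by 4.81 ± 0.15, or 28.0-fold (adjusted p = 1.8e-10). White and other sums overlap for Cox7a1: Male white nuclei at 5.88 CPM lay below Female macrophage nuclei at 6.10 CPM. Cox5a, which carries a regulatory site for thyroid hormone metabolites, followed at 146 and 131 CPM in brown against 9.36 to 25.8 in the non-adipocyte sums (3.05 ± 0.15).

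The constitutive isoforms rose as well. Cox4i1, the usual form of subunit 4, was at 178 and 188 CPM in brown, 89.1 and 84.9 in white and 29.4 to 58.9 in the others (log2 2.18 ± 0.08). Cox6a1 differed by 1.95 ± 0.10, Cox6b1 by 2.58 ± 0.09, Cox7a2 by 1.75 ± 0.09, Cox7b by 2.85 ± 0.12, Cox7c by 1.92 ± 0.09 and Cox8a by 2.20 ± 0.09, all called. Cox4i2, a form of subunit 4 known for oxygen sensing in vascular smooth muscle, was the only tested complex IV gene not called here, at 0.07 ± 0.66 (edgeR adjusted p = 0.95) and 4 to 5 UMIs in each brown sum. Its fitted value depends on very few UMIs and lay between -0.03 and 1.73 over the alternatives tried.

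**Figure D3:**
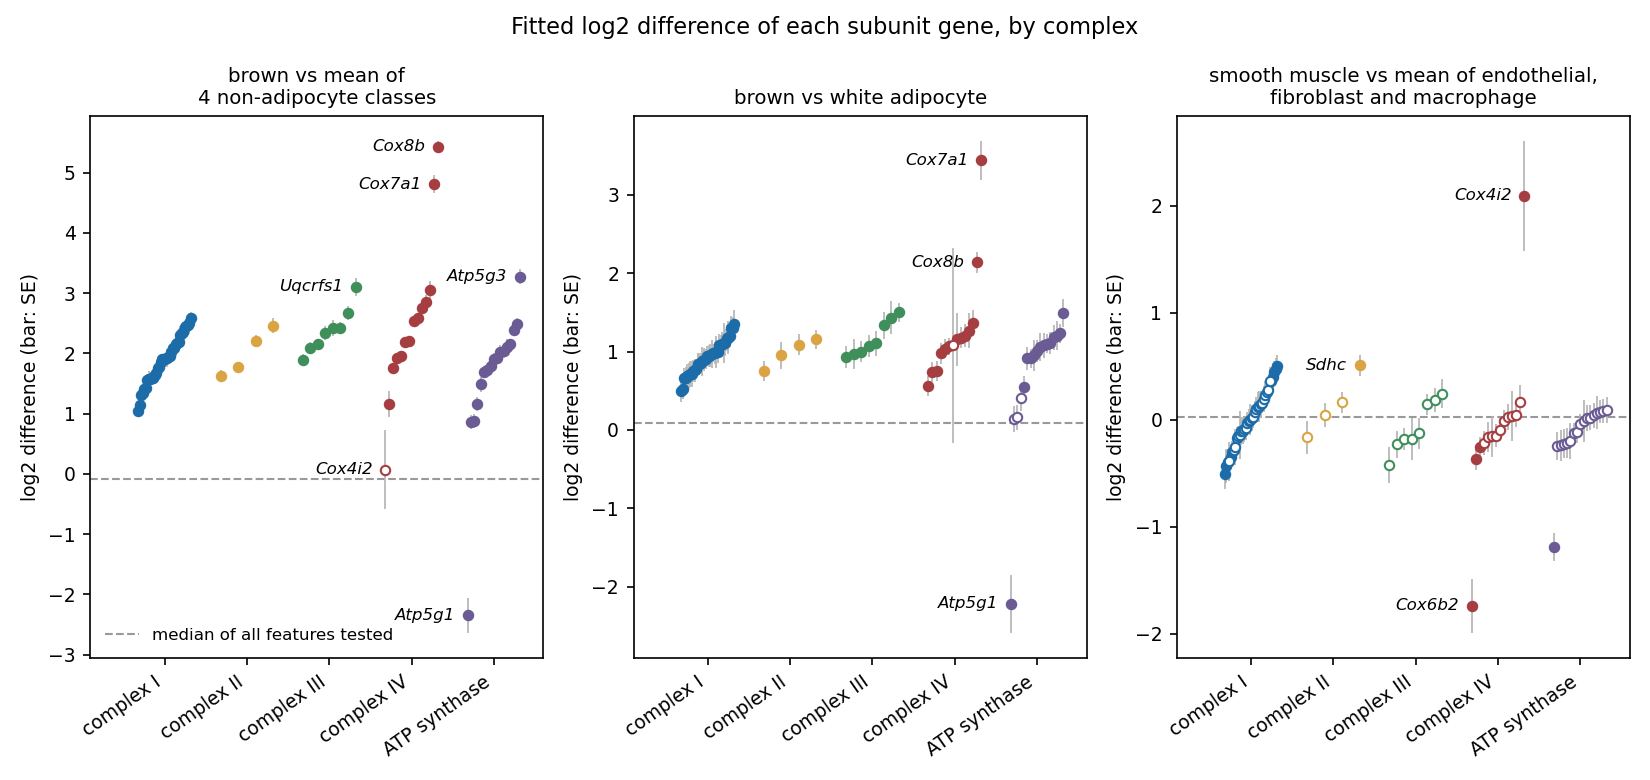
Log2 difference of each tested subunit gene (y axis, bars for SE) by complex (x axis) in 3 comparisons, filled where the adjusted p is under 0.05 and open where not. The dashed line is the median of all features. In the left panel Cox8b at 5.43 and Cox7a1 at 4.81 lie above the rest and Atp5g1 at -2.35 below, and in the right panel most points lie near 0 apart from Cox4i2, Cox6b2 and the second Atp5o model.

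In ATP synthase 16 of 17 features were higher and Atp5g1 was lower. The 16 include the second Atp5o model, whose counts cannot be assigned to an ATP synthase message (below). The catalytic beta subunit gene Atp5b was at 337 and 336 CPM in brown nuclei, 191 and 164 in white and 55.04 to 74.1 in the others (log2 2.39 ± 0.08, edgeR adjusted p = 3.1e-10). The alpha subunit gene Atp5a1 differed by 2.49 ± 0.10 and the gamma subunit gene Atp5c1 by 1.69 ± 0.10. The delta subunit gene Atp5d (1.79 ± 0.11), the stalk subunit gene Atp5h (1.72 ± 0.09) and Atp5j2 (2.15 ± 0.08) lay between them.

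The ring of c subunits is encoded by Atp5g1, Atp5g2 and Atp5g3, whose mature proteins are the same. Atp5g3 was at 206 and 153 CPM in brown nuclei, 65.3 and 61.6 in white and 13.8 to 20.2 in the others, a log2 difference of 3.27 ± 0.12 (9.68-fold, edgeR adjusted p = 7.2e-10). Atp5g1 was at 2.19 and 1.83 CPM in brown nuclei (19 and 11 UMIs), 10.9 and 8.18 in white and 5.78 to 14.6 in the others. The 2 brown values lie below all other 10, and Atp5g1 was the only member called lower, at -2.35 ± 0.29 (5.09-fold lower, adjusted p = 2.2e-05) against the 4 classes and -2.22 ± 0.37 (4.65-fold lower, adjusted p = 0.0018) against white nuclei. After thinning to 1000 UMIs the latter was -1.90 with an adjusted p of 0.22. Atp5g2 differed little between brown (24.0 and 26.7 CPM) and white nuclei (24.4 and 20.7), and was at 10.9 to 14.9 CPM elsewhere. Atp5g1 lies at chr11:96068852-96075670 on GRCm38 and overlaps no other gene model. Atpif1, the inhibitor of ATP synthase's reverse reaction, which the symbol rule does not take, was also lower in brown nuclei, by -2.04 ± 0.13 against the 4 classes and -0.78 ± 0.17 against white nuclei (adjusted p = 5.3e-08 and 0.01).

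Isoform use can be read as a share of a family's UMIs, which is compared only across classes, since UMIs are not scaled for gene length. Cox7a1 took 57.8% and 56.9% of the Cox7a1 and Cox7a2 UMIs in brown nuclei (intervals 55.2 to 60.4% and 53.6 to 60.1%). In white nuclei it took 23.6% and 12.04%, and in the other sums 7.14 to 24.3%, from few Cox7a1 UMIs. Cox8b took 49.9% and 50.6% of Cox8a and Cox8b UMIs in brown, 23.3% and 27.3% in white and 7.97 to 12.2% elsewhere, so that for Cox8b the white intervals (19.4 to 27.5% and 23.6 to 31.3%) lay between those of brown and of the smooth muscle and endothelial sums. For the c subunit, Atp5g3 made up 88.7% and 84.2% of the family in brown, 64.9% and 68.1% in white and 38.5 to 49.4% elsewhere. Atp5g1 made up 0.944% and 1.01% in brown, 10.8% and 9.04% in white and 15.3 to 29.7% elsewhere.

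**Figure D4:**
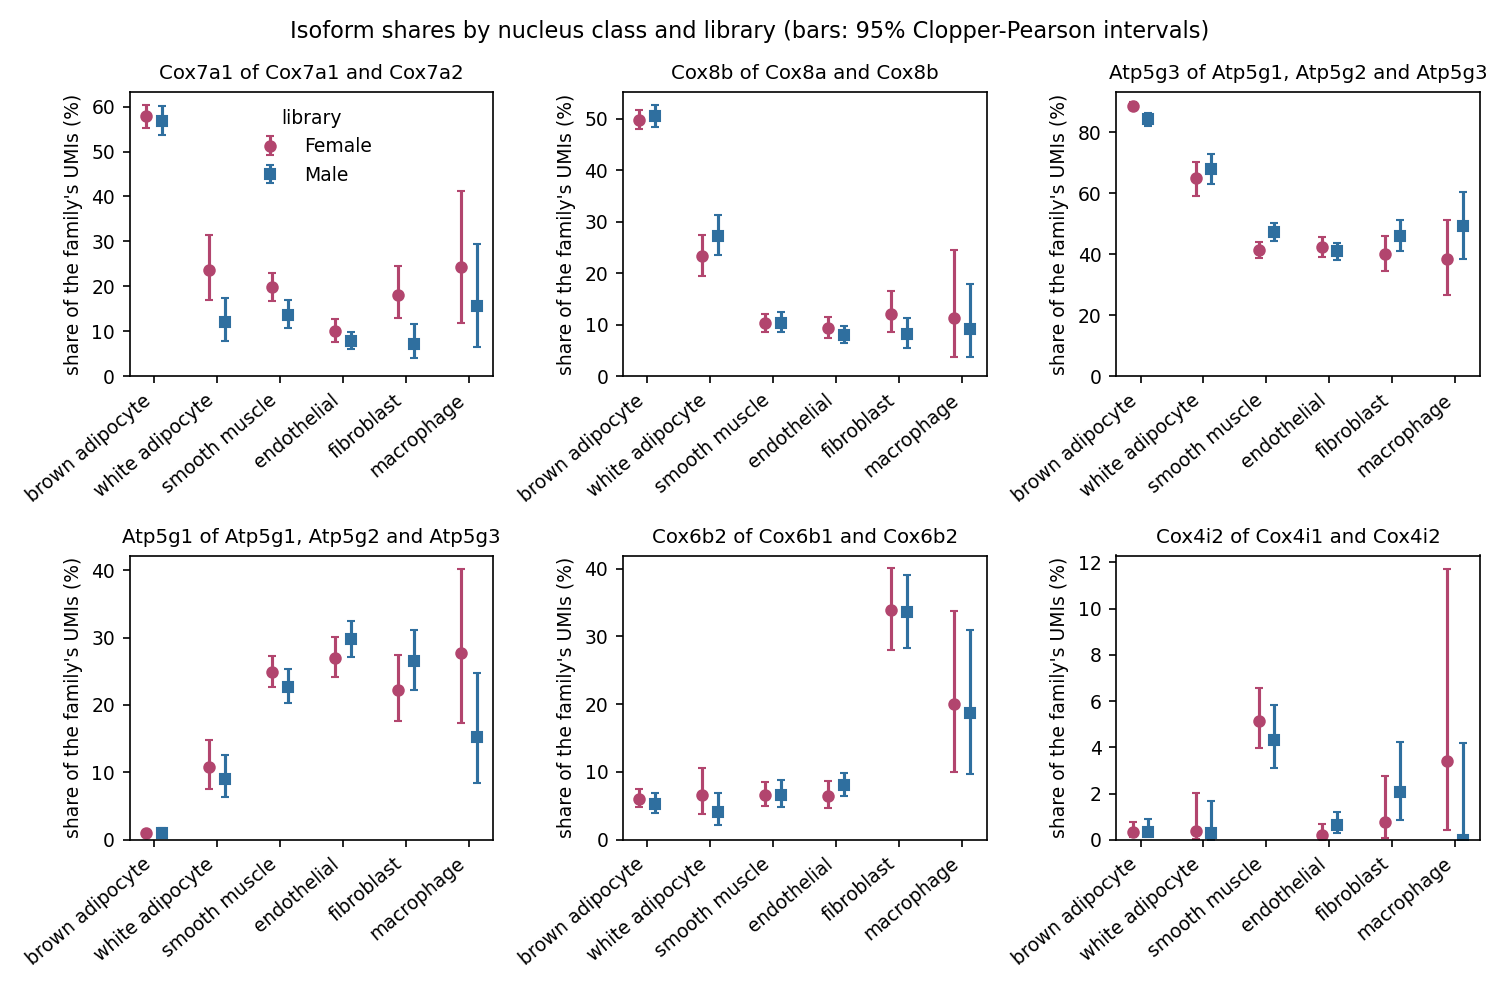
Share of a family's UMIs (y axis, in %, from 0) held by 1 isoform in each class (x axis) and library (circle Female, square Male), with exact 95% Clopper-Pearson intervals as bars. Brown adipocyte nuclei stand highest for Cox7a1, Cox8b and Atp5g3 and lowest for Atp5g1, near 1%. Fibroblast nuclei stand highest for Cox6b2, at 33.9 and 33.5%, and smooth muscle nuclei stand highest for Cox4i2, at 5.15 and 4.31%.

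The levels of the muscle-type isoforms outside adipocytes were near the bottom of the range. As a share of its brown level, Cox8b was at 2.01 to 2.49% in the 4 non-adipocyte classes and Cox7a1 at 2.93 to 5.12%. Brown adipocyte markers that the class rule did not use varied widely there. Otop1 was at 0.512 to 1.22%, Kcnk3 at 0.684 to 2.56% and Pank1 at 1.11 to 4.08%. Esrrg was at 1.45 to 19.5% and Gk at 6.37 to 60.6%. They thus set no single background level, and no estimate of free RNA was made. Whether the few Cox8b and Cox7a1 UMIs in these classes come from free RNA was not tested, so their fold differences and shares against these classes rest on levels that may hold background. For the members as a whole the median was 22.1% of the brown level in smooth muscle, 28.9% in endothelial, 22.3% in fibroblast, 24.9% in macrophage and 50.1% in white nuclei.

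Between the 2 kinds of adipocyte nuclei, brown were higher for 76 of 81 members and lower for 1, where 8.61% of features were higher and 6.08% lower. The median log2 difference was 0.99, against 0.08 over all features, so most members differed by close to 2-fold. Cox7a1 (3.44 ± 0.25, edgeR adjusted p = 6.9e-06) and Cox8b (2.14 ± 0.13, 2.5e-06) again led. Uqcrc1 (2.83-fold), Atp5g3 (1.49 ± 0.18), Uqcrfs1 (1.43 ± 0.21), Ndufa5 (1.35 ± 0.17) and Ndufv1 (1.30 ± 0.14) were among those that followed, and in complex II Sdhc (1.15 ± 0.13) and Sdhb (1.09 ± 0.14). The smallest called differences were in Ndufs4 (0.49 ± 0.14), Ndufa7 (0.52 ± 0.13), Atp5c1 (0.55 ± 0.14) and Cox8a (0.56 ± 0.12). Cox4i2, Atp5g2, Atp5j and the second Atp5o model were not called. Without nuclei that hold a second marker set, which leaves 145 and 199 white nuclei, 70 members were higher and 1 lower, and the median difference was 1.2. After thinning to 1000 UMIs, 55 were higher and 0 lower. The share of all features called was not worked out for these settings, so the fall in the count cannot be read as one of the members alone.

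White adipocyte nuclei in turn were higher than the mean of the 4 non-adipocyte classes for 76 members and lower for 0, where 26.3% of features were higher and 29.2% lower (edgeR quasi-likelihood test, 0 lower also at an unadjusted p of 0.05 and by DESeq2). The median log2 difference was 0.98, against -0.12 over all features. Cox8b had the largest (3.29 ± 0.13), then Cox5a (1.79 ± 0.19), Atp5g3 (1.78 ± 0.15), Ndufa4 (1.74 ± 0.12), Ndufb3 (1.71 ± 0.12) and Uqcrfs1 (1.67 ± 0.20). Not called were Cox4i2, Atp5g1, Cox6b2, Cox7a2l and Atp5e. Without nuclei of a second marker set, 63 members were higher and 0 lower, and after thinning 61 and 0. For these settings too the share of all features called was not worked out. Cox7a1, called at 1.37 ± 0.28 (adjusted p = 0.0012), was not called after thinning. In both libraries, 69 of 81 members were ordered brown above white above every other class, against 6.24% of features.

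Other gene lists of energy metabolism give the surroundings of the chain. Against the 4 non-adipocyte classes, 31.2% of all features were higher in brown nuclei and 32.7% lower. Of the genes of the citric acid cycle and pyruvate dehydrogenase, 15 of 15 were higher (median log2 2.56). So were 15 of 16 genes of fatty acid beta-oxidation (3.17) and 10 of 11 for cytochrome c and coenzyme Q synthesis (1.90). The counts were 28 of 36 for respiratory chain assembly factors (0.93) and 59 of 75 for mitochondrial ribosomal proteins (0.69, 3 lower). Cytosolic ribosomal proteins went the other way, with 2 higher and 59 lower of 78 (-0.51). Examples are the cycle enzyme gene Idh3a (4.52 ± 0.10), the cytochrome c gene Cycs (3.67 ± 0.13), at 93.0 and 87.9 CPM in brown and 5.66 to 9.79 in the non-adipocyte sums, and Cox10, a heme synthesis enzyme for complex IV (2.41 ± 0.10). Of 16 features listed for glycolysis genes, 13 were higher too (median 2.16), Hk2 by 4.95 ± 0.16. Cpt1b of the beta-oxidation list is also among the 11 markers used to check the brown class.

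Messages encoded by mitochondrial DNA did not show the same steps. The 13 summed to 584 and 620 CPM in brown nuclei, 304 and 294 in white, 510 and 463 in smooth muscle, 686 and 887 in endothelial, 377 and 427 in fibroblast and 490 and 332 in macrophage nuclei. Brown was higher than the 4 classes for 2 of 13 (median log2 0.08) and higher than white for 9 of 13 (0.88), while white was lower than the 4 classes for 11 of 13 (-0.72). Of all features, 31.2%, 8.61% and 29.2% were called in these directions, in the same order. For mt-Co1, a core subunit of complex IV, the differences were -0.05 ± 0.12, 0.94 ± 0.17 and -0.99 ± 0.14. These messages are made in mitochondria, outside the nucleus, and how much of them each class's nuclei carried along was not tested.

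Among 13 regulators of mitochondrial genes, 10 were higher and 1 lower in brown nuclei than in the 4 classes. Of all features, 31.2% were higher and 32.7% lower. The coactivator genes Ppargc1b (5.76 ± 0.11, at 2839 and 2465 CPM in brown and 23.0 to 121 in the non-adipocyte sums) and Ppargc1a (4.86 ± 0.14) and the estrogen-related receptor genes Esrrg (4.91 ± 0.16), Esrrb (3.82 ± 0.38) and Esrra (2.83 ± 0.08) differed most. The mean of the 4 classes hides a spread for Esrrg, which was at 1956 and 1667 CPM in brown nuclei. It was at 463 and 241 CPM in fibroblast nuclei, above white nuclei (191 and 140), and at 16.5 to 48.1 in the other non-adipocyte sums. Gabpa differed by 1.94 ± 0.11 and Tfam, which packages mitochondrial DNA, by 0.40 ± 0.16, while Nrf1 was lower, by -0.33 ± 0.11 (edgeR adjusted p = 0.023). Yy1 (0.06 ± 0.09) and Gabpb1 (-0.14 ± 0.10) were not called. Esrrg is also 1 of the 11 markers used to check the brown class.

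Among the non-adipocyte classes the chain was close to level. Endothelial nuclei were the highest of the 4 for 55 of 81 members (67.9%), against 23.1% of all features, macrophage nuclei for 12 (14.8%, against 28.4%), smooth muscle for 11 (13.6%, against 26.1%) and fibroblast for 3 (3.70%, against 22.4%). The endothelial excess was small, 2297 and 2415 CPM in sum against 1827 to 2095 in the others. The endothelial sums were also highest for cytosolic ribosomal proteins (5701 and 6272 CPM, against 2617 and 2779 in smooth muscle) and for mitochondrially encoded messages, and the part of these in the result was not tested.

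Smooth muscle nuclei against the mean of endothelial, fibroblast and macrophage nuclei had 7 members higher and 10 lower, where 23.1% of features were higher and 21.1% lower. The median log2 difference was -0.01 against 0.03 over all features. Higher were 5 of complex I, the most in Ndufv3 (0.51 ± 0.10) and Ndufv2 (0.48 ± 0.10), both of the NADH-binding module, Sdhc of complex II (0.51 ± 0.10, edgeR adjusted p = 0.0011) and Cox4i2. Lower were Cox6b2, the second Atp5o model, Cox7a2 (-0.36 ± 0.11), Cox4i1 (-0.25 ± 0.09), Cox7a2l (-0.27 ± 0.10) and 5 of complex I, among them Ndufb11 (-0.51 ± 0.14) and Ndufc2 (-0.43 ± 0.16). With scaling by total UMIs alone, 5 were higher and 21 lower, and the median of all features moved by -0.12. The count of lower members was 3 to 5 under 4 other alternatives, in which Cox7a2 was not called.

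Cox4i2 was at 1.73 and 1.42 CPM in smooth muscle nuclei (62 and 40 UMIs). It was at 0.108 and 0.371 in endothelial, 0.228 and 0.697 in fibroblast and 1.36 and 0 in macrophage nuclei, the last 2 from 2 and 0 UMIs. Smooth muscle is highest in both libraries, and the log2 difference was 2.10 ± 0.51 (edgeR adjusted p = 0.0055). It took 5.15% and 4.31% of the Cox4i1 and Cox4i2 UMIs there (intervals 3.97 to 6.55% and 3.10 to 5.83%), against 0.185% and 0.626% in endothelial and 0.322% and 0.352% in brown nuclei, whose intervals lie below. In Male fibroblast nuclei the interval reached 4.25%, and the macrophage counts leave the share there up to 11.7%.

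Cox6b2, a form of subunit 6b known from testis, had another pattern. It was at 9.81 and 10.5 CPM in fibroblast nuclei, 9.56 and 8.64 in brown, 6.78 and 4.89 in macrophage, 5.28 and 3.07 in white, 2.26 and 3.26 in endothelial and 1.48 and 1.49 in smooth muscle nuclei. Fibroblast sums were thus the highest in both libraries and smooth muscle sums the lowest, at -1.74 ± 0.25 against the 3 other classes (edgeR adjusted p = 0.00015). As a share of Cox6b1 and Cox6b2 it took 33.9% and 33.5% in fibroblast nuclei (intervals 28.1 to 40.04% and 28.3 to 39.1%), 20% and 18.6% in macrophage nuclei from 10 and 11 UMIs, and 4.03 to 8.004% in the other 4 classes. Ndufa4l2, a relative of Ndufa4 that the rule does not take, was likewise highest in fibroblast nuclei, at 4.45 and 3.39 CPM against at most 0.678 elsewhere. Mesothelial markers were also highest in the nuclei of the fibroblast class (145 and 273 CPM, against 43.1 at most elsewhere), and their part in these results was not tested.

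Atp5o is listed as 2 gene models. The usual one was at 72.6 and 71.4 CPM in brown and 12.1 to 24.4 in the non-adipocyte sums. The second spans 242585 bases, chr16:91684398-91926982 on GRCm38, overlaps Itsn1, Donson, Cryzl1 and the usual Atp5o model, and was highest in macrophage nuclei (57.6 and 49.8 CPM, against 6.26 to 24.4 elsewhere). It was called lower in smooth muscle, at -1.19 ± 0.13. Since the counting rule for overlapping models is not given, these counts cannot be assigned to an ATP synthase message.

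The reporter was used to split smooth muscle and fibroblast nuclei. At least 1 GFP UMI was found in 36.4% and 36.1% of smooth muscle and 21.5% and 21.1% of fibroblast nuclei. The share was 31.0% and 34.0% in brown adipocyte and 30.6% and 33.2% in white adipocyte nuclei. It was 15.8% and 16.3% in endothelial and 13.5% and 11.6% in macrophage nuclei, so that the split by 1 UMI is not a clean split by lineage. Smooth muscle nuclei with GFP UMIs and no tdTomato UMIs numbered 2409 and 2194, and those with tdTomato only 1721 and 1429. The summed chain level was 1967 and 2011 CPM in GFP-only and 1915 and 1891 CPM in tdTomato-only nuclei. Of 80 members tested, 0 were called in either direction, where 1.96% of features were higher and 2.56% lower (edgeR quasi-likelihood test on 4 sums, DESeq2 also 0). At an unadjusted p of 0.05, 5 were higher and 1 lower, where 857 and 1023 of all 14516 features were. With at least 2 reporter UMIs, the summed level was 2008 and 2129 against 1879 and 1894 CPM, and 0 members were called. Nearest to a call were Ndufv3 (0.31 ± 0.09, adjusted p = 0.063) and Uqcrc2 (-0.29 ± 0.09, 0.078), chosen after their values were seen. Under 3 alternatives 1 member was called higher.

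In fibroblast nuclei the split gave 410 and 449 GFP-only and 284 and 320 tdTomato-only nuclei, with 1836 and 1993 against 1792 and 1952 CPM in sum. Of 73 members tested, 0 were called by edgeR or DESeq2, where 1.23% of features were higher and 3.14% lower, and 3 were higher and 0 lower at an unadjusted p of 0.05, as were 609 and 738 of all 10764 features. With at least 2 reporter UMIs the direction turned in the Female library (1823 in GFP-only against 1920 CPM), the Male library had 2101 against 1903 CPM, and 0 members were called. Uqcrq had the smallest p, at 1.03 ± 0.31 (adjusted p = 0.078). These counts of 0 do not show that GFP-only and tdTomato-only nuclei are alike, since single members had SEs of up to 0.46 on the log2 scale.

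Female and Male sums could be compared only by size, since there is 1 library per sex. Among members with at least 50 UMIs and 20 CPM in either library, 0 were 2-fold apart in any class, of 78 in brown, 72 in white, 35 in smooth muscle, 52 in endothelial, 37 in fibroblast and 45 in macrophage nuclei. In brown nuclei 0.591% of all features were 2-fold higher in Female and 0.499% in Male, and in white nuclei 1.97% and 1.77%. The shares were 0.125% and 0.279% in smooth muscle, 0.0266% and 0.373% in endothelial, 0.297% and 0.608% in fibroblast and 1.09% and 0.814% in macrophage nuclei. The median log2 ratio of Female to Male (5 CPM added to both) was 0.03 in brown, 0.14 in white, -0.01 in smooth muscle, -0.07 in endothelial, -0.06 in fibroblast and -0.03 in macrophage nuclei. Over all features it was -0.05, -0.09, -0.01, -0.01, 0.00 and 0.00 in the same order.

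Within those limits, 54 of 72 members were above 0 in white nuclei, and 41 of 52 in endothelial and 27 of 37 in fibroblast nuclei were below 0. The share of all features above or below 0 was not worked out, so these counts cannot be read as particular to the members. Below 0 in endothelial nuclei were also 9 of 9 mitochondrially encoded and 69 of 75 cytosolic ribosomal protein genes, and in fibroblast nuclei 6 of 7 and 56 of 69. Their part in the result was not tested. The largest ratio in white nuclei was that of Cox5a, at 72.9 CPM (221 UMIs) in Female and 42.9 CPM (168 UMIs) in Male, a log2 ratio of 0.70. In macrophage nuclei it was Cox7b, at 26.4 and 14.2 CPM from 39 and 32 UMIs (0.71). In brown nuclei Atp5g3 was the furthest apart, at 206 and 153 CPM (0.42). None of these has a replicate.

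**Figure D5:**
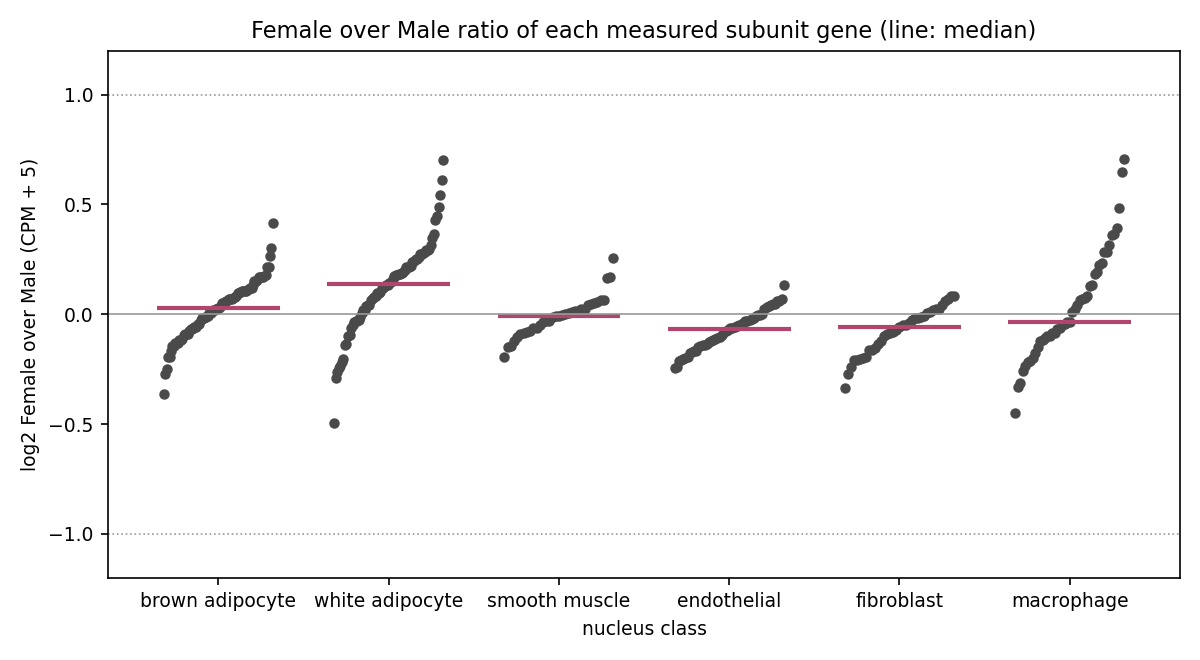
Log2 ratio of Female to Male CPM, with 5 CPM added to both (y axis), of each member that passed the filter, by nucleus class (x axis), with a line at the class median and dotted lines at 2-fold. No point reaches the dotted lines, the white adipocyte points lie mostly above 0 with a median of 0.14, and the endothelial points mostly below.

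The genes are spread over the genome, with at most 8 on 1 chromosome (chromosome 7). Their median span on GRCm38 was 7284 bases, against 17318 for all protein-coding genes, and 37 of 85 overlap another gene model, 25 a protein-coding one. Across 81 members, the log2 difference of brown to the 4 classes had a Spearman correlation of -0.25 with gene span, which is across genes that share the same libraries and is a description only. The 24 tested members that overlap a protein-coding gene had a median difference of 1.91 and the 57 others 1.95.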

How the data were processed

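The deposited files hold raw UMI counts per gene and barcode for 1 Female and 1 Male library, made with Cell Ranger 7.0.0 per the file headers. The submitters' processing notes name GRCm38, STAR, Cell Ranger and Seurat 4.4.0. For the annotation version, strand setting and use of intronic UMIs, nothing is given in the sources used here. No deposited cell annotation was used here. Classes were rebuilt from 3 markers each, so they may differ from the study's, and no doublet caller was run. UMIs were summed per class and library (12 sums, 2 libraries), and features with at least 50 UMIs were tested with edgeR 4.0.16 (R 4.3.3; TMM scaling, quasi-likelihood test, library as a block, adjusted p of 0.05, SE from the F statistic). The block comes from the design: the sums of all 6 classes in a library come from the same pool. Reporter contrasts used 4 sums, of nuclei with UMIs of 1 reporter gene and none of the other. DESeq2 1.42.0 was an alternative. Thinning drew 1000 UMIs per nucleus, leaving out shallower nuclei. Intervals are exact (95%), and intervals and floors of 3 counts cover counting error only. Tests were checked on simulated data. Python 3.11.15, numpy 2.4.6, scipy 1.17.1 and pandas 2.3.3 were used. Members, lists and tests were chosen with earlier results of these data known. Genes named are the members of isoform families, the 3 of each complex with most UMIs and, in each contrast, the 2 called members of a complex with the largest and the 2 with the smallest difference, and the members below the filter. Other members named were chosen after their values were seen.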

Additional observations from a re-analysis of the deposited data

Results flagged for a closer look

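Nuclei left out of every class were in no comparison. They numbered 1412 (Female) and 1734 (Male) and held respiratory chain genes at 2575 and 2582 CPM, above the smooth muscle, endothelial, fibroblast and macrophage sums and below both adipocyte classes. Atp5l2-ps, a pseudogene name that the symbol rule leaves out, had 6 Female and 12 Male UMIs.

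In the comparisons of brown or white nuclei, 5 members had opposite signs in the Female and Male libraries, and the difference between libraries was not tested. Against the 4 non-adipocyte classes, Cox4i2 in brown nuclei had log2 differences of -0.032 (Female) and 0.41 (Male). In white nuclei the values were 0.62 and -0.075 for Atp5e, 0.042 and -0.27 for Atp5g1 and 0.40 and -0.44 for Cox6b2. Between brown and white nuclei Atp5g2 had -0.035 and 0.35. None of these 5 was called in that comparison. In smooth muscle against the 3 other classes, where most differences were near 0, 16 members had opposite signs.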

How the results depend on the processing

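Only some genes were followed singly, and none of these that was called changed direction under any alternative run. The other called genes were not followed in this way. Of the 270 values of the main results, 242 stayed within 1.5 times or within the spread of the 2 libraries. Members lower in smooth muscle numbered 21 with total UMIs, 3 with no low-count filter, 4 without nuclei of 2 marker sums, 5 without barcodes found in both libraries and 4 after thinning. GFP-only smooth muscle had 1 member higher with RLE scaling, 1 with no filter and 1 with 10 CPM in 2 sums, fibroblast 1 with no filter. After thinning, 0 members were lower in brown than in white nuclei, and 1 member was 2-fold apart between the sexes in macrophage nuclei. The brown chain level was 8943 CPM with the largest marker sum at least 2 times the second, 9586 without nuclei of 2 sums, 8231 without shared barcodes and 9339 thinned, and the white level 4704 thinned. In smooth muscle, in the order marker sum of 5, 2 times the second, at most 1% mitochondrial UMIs, no second sum, no shared barcodes and thinned, it was 1931, 1904, 1885, 1915, 1901 and 1986 CPM, and the share of thinned nuclei with a chain UMI was 82.1% without shared barcodes. In macrophage nuclei the level was 2015 (2 times the second), 2007 (at most 1% mitochondrial UMIs) and 1995 CPM (no second sum), and the share 84.1% and 84.0% for the first and the last. The cause of these shifts was not tested. With no replicate block, 75 members were higher and 1 lower in brown than in white, 79 and 1 against the 4 classes, 76 and 0 in white and 8 and 7 in smooth muscle. Leaving out each library gave medians with no test of 0.92 to 1.06, 1.87 to 2.05, 0.90 to 1.10 and -0.03 to -0.00 in the same order, and 0.06 to 0.07 and 0.02 to 0.09 for the reporter in smooth muscle and fibroblast. Members higher in brown than in white numbered as few as 55, and in white against the 4 classes 61, both after thinning. The share of all features called was worked out in the main setting only, so none of these counts is set against it. Among the genes followed singly, calls were lost for Cox6b2 (brown against white, adjusted p from edgeR 0.050 to 0.15 in 3 settings), Atp5g1 (brown against white, thinned, -1.90, 0.22), Cox7a1 (white, thinned, 1.29, 0.091), Cox7a2 in smooth muscle (4 settings) and Ndufb11 there (thinned). The settings without shared barcodes and without nuclei of heart muscle UMIs were chosen after seeing the data. Few UMIs limit Cox4i2, Cox6b2 and the macrophage shares.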
